A study of Mus musculus with 8 samples.

Results

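The miR-181 family was examined in brown adipose tissue, a fat that burns fuel to make heat, from cold-exposed and room temperature mice. Its members were taken as the array rows named exactly mmu-miR-181a, mmu-miR-181b, mmu-miR-181c or mmu-miR-181d, which gave 4 of the 566 mouse miRNAs on the array and 8 of its 1712 probes. All 4 passed the filter on dim probes, together with 185 other mouse miRNAs, with 6 of their 8 probes. The study used 6 male C57Bl6N mice aged 8 weeks. The cold group was 3 mice (numbered 1 to 3) kept at 8 °C for 24 h, and the room temperature group was 3 mice (numbered 4 to 6) kept at 21 °C. Total RNA was labelled with Cy3 and hybridised to 1-colour Agilent arrays, with 2 arrays each for mouse 1 and mouse 4, so that there were 8 arrays in all. No transgene or mutation was named in the labels for either group.

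The miR-181 family is a set of small RNAs that share a seed, the stretch near the 5′ end through which a miRNA pairs with its target mRNAs. Its mature members are cut from the 5′ arms of hairpins that lie in pairs at several places in the mouse genome. In mice the family is best known in lymphocytes, where miR-181a tunes the sensitivity of the T cell receptor, in endothelium, where miR-181b dampens NF-κB signalling, and in white adipocytes, where the family has been tied to adipose inflammation and insulin sensitivity.

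The mature sequences are shown because the 4 members differ so little that the array has to tell them apart by a few bases. They were matched by name to RefSeq (GRCm38.p6), run from 5′ to 3′, and carry the seed (bases 2 to 8) in capitals.
mmu-miR-181a: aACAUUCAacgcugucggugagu
mmu-miR-181b: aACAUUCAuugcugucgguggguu
mmu-miR-181c: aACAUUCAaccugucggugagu
mmu-miR-181d: aACAUUCAuuguugucggugggu
The seed ACAUUCA was held by these 4 of the 1679 mature mouse miRNA names in that table and by no other. Likeness in sequence did not follow the loci. Counted from base 1 at the 5′ end, mmu-miR-181b and mmu-miR-181d differed over their 23 shared bases by the single substitution C12U, and mmu-miR-181b is 1 base longer at its 3′ end. mmu-miR-181c is mmu-miR-181a without its base at position 11. mmu-miR-181a and mmu-miR-181b differed by A9U, C10U and A21G, and mmu-miR-181c and mmu-miR-181d by 5 single-base changes or gaps.

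In the RefSeq annotation of GRCm38.p6, miR-181a and miR-181b come from 2 hairpins each, so that neither mature miRNA reports on 1 locus. Mir181a-1 and Mir181b-1 lie on chromosome 1 with 97 bases between them, overlap no other annotated gene, and have Ptprc, which encodes the leukocyte surface phosphatase CD45, as their nearest protein-coding gene. Mir181a-2 and Mir181b-2 lie on chromosome 2 with 1019 bases between them, within the bounds of Nr6a1, which encodes an orphan nuclear receptor, and of its antisense gene Nr6a1os. Mir181d and Mir181c lie on chromosome 8 with 85 bases between them, on the minus strand, outside other annotated genes and nearest to Nanos3, a gene of germ cell development.

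The passenger strands, the 3′ arms of the same hairpins, are shown because on this array they were the rows that tell the chromosome 1 hairpin from the chromosome 2 hairpin of miR-181a. Their RefSeq sequences are written in the same way.
mmu-miR-181a-1*: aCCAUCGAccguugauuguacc
mmu-miR-181a-2*: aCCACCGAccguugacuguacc
mmu-miR-181a-1* had 2 probes and mmu-miR-181a-2* had 4, and none of these was well above background on any of the 8 arrays. Their mean signals lay between -1.45 and 2.01 units. Negative control spots had array means of -0.16 to 0.75 units with SDs of 1.75 to 2.69 units, so the passenger strands were not detectable at this signal and neither hairpin of miR-181a was followed on its own.

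A normalised level is log2 of a probe's signal over the 75th percentile of the 267 probes detected on every array, and a change is the cold mean minus the room temperature mean. A change was called when limma's p, adjusted by the Benjamini-Hochberg method over 189 miRNAs, was under 0.05. Levels of different probes depend on their binding and are given side by side, not ranked. The number of mice (3 per group) limits the precision of every value, and the labels do not say whether mice shared a cage or whether tissue was pooled. In whole tissue, fewer cells of a type and less RNA per cell cannot be told apart.

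Signal along the printed grid of 192 rows differed between the groups. Over the 1638 spots detected on every array, the lower rows (97 to 192) exceeded the upper rows by 0.39 to 0.64 log2 units on the 4 cold arrays, relative to each spot's mean over all arrays. On the 4 room temperature arrays the same value was -0.59 to -0.51. Since the mean over all arrays is the reference, these values show that the groups differed along the grid, not which of them was uneven. Cold arrays occupied 1 row of the slide and room temperature arrays the other, so that slide position and temperature cannot be told apart. Values with a smooth trend over grid rows removed from each array were added after this was seen.

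**Figure D1:**
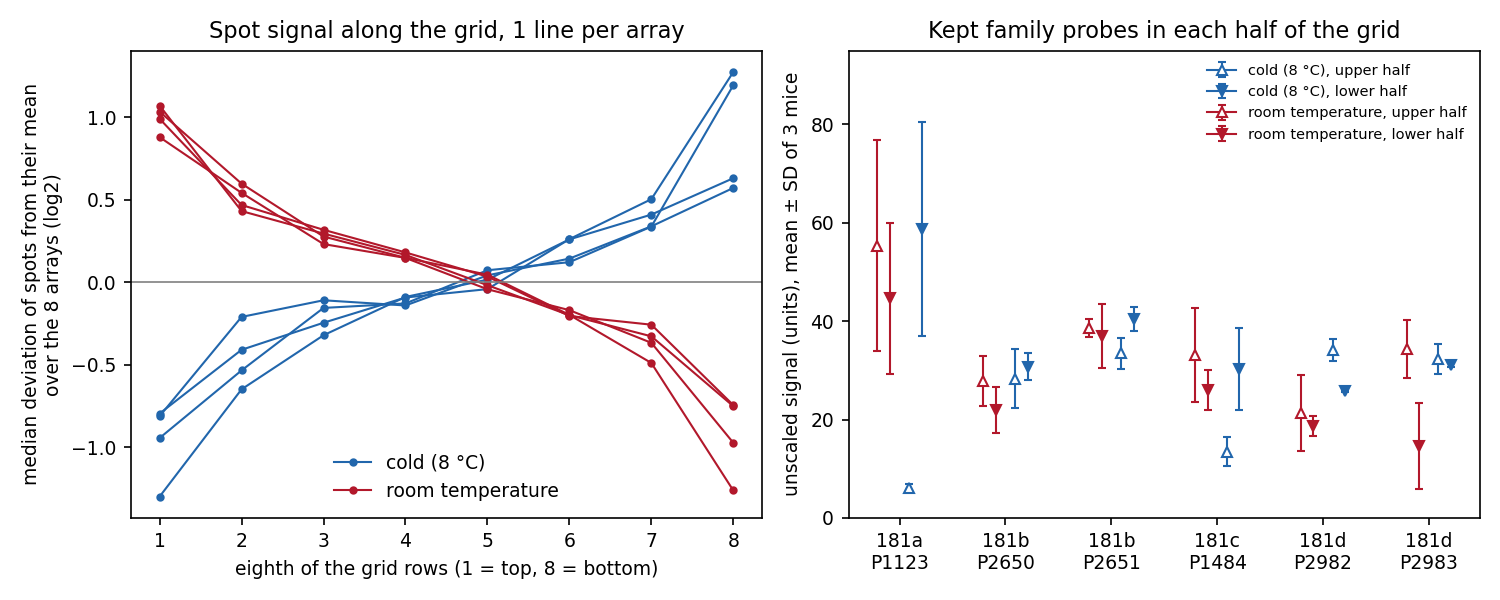
Left, the median log2 deviation of spots from their own mean over the 8 arrays, in eighths of the grid rows from top to bottom, with 1 line per array. Right, the unscaled signal in units (mean ± SD of 3 mice) of the 6 kept family probes in the upper and the lower rows of the grid, with P standing for the last part of each probe's name. Cold lines climb and room temperature lines descend, and the P1123 probe of mmu-miR-181a has a cold mean in the upper rows of 6.17 units against 55.4 units at room temperature.

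Tissue markers were checked in the same levels. The 4 brown fat miRNAs were all measured, with a summed level (signal over the 75th percentile) of 8.56 to 11.8 in the cold mice and 6.88 to 8.34 at room temperature. Of these, 2 were called higher, mmu-miR-378 by 0.97 and mmu-miR-193b by 0.64 on the log2 scale (limma adjusted p = 0.0219 and 0.0129). The other 2, mmu-miR-455 (0.13) and mmu-miR-365 (-0.07), were not called, and the median change of the 4 was 0.38. Skeletal muscle miRNAs were also present and moved with temperature: all 4 had negative changes (median -1.92), and 3 of them were called. Their sum was 1.49 to 6.44 in the cold against 7.53 to 11.1. Of 8 leukocyte miRNAs none was called, all had negative changes (median -0.35), 2 had an unadjusted p under 0.05, and the sums were 0.711 to 1.14 against 1.2 to 1.25. Over all 189 miRNAs, 15.3% were called and 62 had an unadjusted p under 0.05. The 3 erythroid miRNAs had positive changes (median 0.64), none called, with sums of 17.4 to 27.9 against 12.3 to 15.1. Of these, 2 had an unadjusted p under 0.05. The 2 endothelial miRNAs were not called. The main liver miRNA, mmu-miR-122, was at the floor in all cold mice (0.01) and at 0.011 to 0.3 at room temperature. Of 3 neural miRNAs, miR-124 and miR-9 were well above background on 0 arrays. The other, mmu-miR-128, was measured and not called, with a change of -0.49 (limma adjusted p = 0.156). The part of these other tissues in the family's values was not tested.

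Within the family, mmu-miR-181d was called higher in the cold mice as processed here, while the other 3 members did not pass the test. The measured ratio of mmu-miR-181d was 1.81 (95% interval 1.42 to 2.31), and it was also called in 14 of 20 alternative settings. The measured changes were 0.62 for mmu-miR-181b, 0.27 for mmu-miR-181a and -0.33 for mmu-miR-181c on the log2 scale. Across all 189 miRNAs 15.3% were called, 16 higher and 13 lower, with a median change of -0.02, and 1 of 4 members is not a share that sets the family apart from that. The split of the calls moved with the scaling, from 3 higher and 33 lower with control RNAs, and 1 higher and 14 lower with none, to 11 higher and 17 lower when the percentile was taken from all miRNA probes. Normexp background correction called 2 higher and 4 lower.

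mmu-miR-181d, one of the chromosome 8 pair, had normalised levels of -4.45, -4.80 and -4.88 in cold mice 1, 2 and 3. At room temperature the levels were -5.63, -5.46 and -5.60 in mice 4, 5 and 6. All cold mice lay above all room temperature mice, and the lowest cold value exceeded the highest room temperature value by more than the spread within the room temperature group (-5.56 ± 0.09, SD, n = 3). The change was 0.85 ± 0.15 (SE), with a limma adjusted p of 0.0121, and 7 of the 189 miRNAs had a smaller unadjusted p.

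Both probes of mmu-miR-181d were detected on all 8 arrays and moved the same way. Its probe A_54_P2982 changed by 0.99 ± 0.17 (adjusted p = 0.00945 in a limma fit over 329 kept probes) and A_54_P2983 by 0.72 ± 0.16 (adjusted p = 0.0223). In that fit 24.3% of all probes were called. Before scaling, A_54_P2982 read 27.8, 27.9 and 29.1 units in cold mice 1 to 3 and 18.6, 16.4 and 23.6 units in mice 4 to 6. The groups of this probe did not overlap even without scaling. A_54_P2983 read 29.9, 32.3 and 33.4 units in the cold mice against 21.4, 23.4 and 35.7 units, so that mouse 6 lay above every cold mouse before its array, the brightest of the 8 with a 75th percentile of 1408 units, was scaled.

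The change of mmu-miR-181d stayed past the threshold with the grid trend removed, at 0.72 ± 0.13 (limma adjusted p = 0.0195), and the groups still did not overlap. After scaling it was 1.61 from the upper rows alone (adjusted p = 0.000996) and 0.61 from the lower rows alone (adjusted p = 0.0996), where it was not called. The upper rows alone called 64 of 188 miRNAs, and the lower rows alone 20 of 187. Before scaling, A_54_P2982 read 34.1 units in the cold against 21.3 in the upper rows and 25.8 against 18.7 in the lower rows. A_54_P2983 read 32.3 against 34.4 units in the upper rows and 31.2 against 14.6 in the lower rows. Without scaling, the upper rows thus gave the larger change for A_54_P2982 and the lower rows for A_54_P2983. In the upper rows A_54_P2983 did not read higher in the cold before scaling, so the size of 1.61 depended on the scaling of those rows. Without mouse 6 the change was 0.84 and was not called (adjusted p = 0.0544).

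mmu-miR-181c, cut from the neighbouring hairpin on chromosome 8, was not called, and its measured change had the other sign. Its levels were -5.50, -5.54 and -5.32 in cold mice 1 to 3 and -5.25, -4.95 and -5.17 in mice 4 to 6. All cold mice lay below all room temperature mice, by a gap of under 0.1 between mice 3 and 4. The change was -0.33 ± 0.14 (95% interval -0.65 to -0.01), with a limma adjusted p of 0.143. The 2 arrays of cold mouse 1 differed by 0.72 for mmu-miR-181c, more than the change itself, whereas the repeats of mouse 4 differed by 0.04.

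Detection of mmu-miR-181c rested on 1 probe. A_54_P1484 was well above background on all 8 arrays, in 25 of 40 spots of the cold arrays and 34 of 40 of the room temperature arrays, and read 14.5, 17.9 and 23.0 units in the cold against 25.9, 27.9 and 39.2 units. A_54_P1485 was detected on 1 cold and 1 room temperature array and read 12.2 ± 5.17 and 11.7 ± 4.19 units (SD, n = 3 mice), with overlapping groups. With normexp background correction the change of mmu-miR-181c turned to 0.20, against a median over all miRNAs that shifted to 0.21 in that setting. After scaling it was -0.05 from the upper rows alone (adjusted p = 0.851) and -0.05 from the lower rows alone (adjusted p = 0.86). With no filter on dim probes it was -0.02 (adjusted p = 0.946), so the size of its change differed with the spots and probes used. Before scaling, A_54_P1484 read 13.4 units in the cold against 33.2 at room temperature in the upper rows. In the lower rows it read 30.3 against 26.0 units.

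The 2 miRNAs of the chromosome 8 locus had measured changes of different sign as processed here. After scaling, that of mmu-miR-181c was near 0 from either set of rows alone and with no filter on dim probes. With the grid trend removed it was -0.30 ± 0.13 (limma adjusted p = 0.1725), and all cold mice still lay below all room temperature mice. The level of mmu-miR-181d minus that of mmu-miR-181c was 1.05, 0.75 and 0.44 in cold mice 1 to 3 and -0.38, -0.51 and -0.43 in mice 4 to 6. Its zero has no meaning, since it sets different probes against each other, but its shift between the groups (1.19) does not depend on the factor each array was divided by. Grid position can enter it. A_54_P1484 of mmu-miR-181c has 7 spots in the upper rows and 3 in the lower. For mmu-miR-181d, A_54_P2982 has 3 and 7, and A_54_P2983 has 6 and 4. The changes of mmu-miR-181d and mmu-miR-181c were 0.72 and -0.30 with the trend removed, and 0.53 and 0.20 with normexp. The groups did not overlap in the level difference as processed here. It was looked at after both changes were known and is given without a test.

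**Figure D2:**
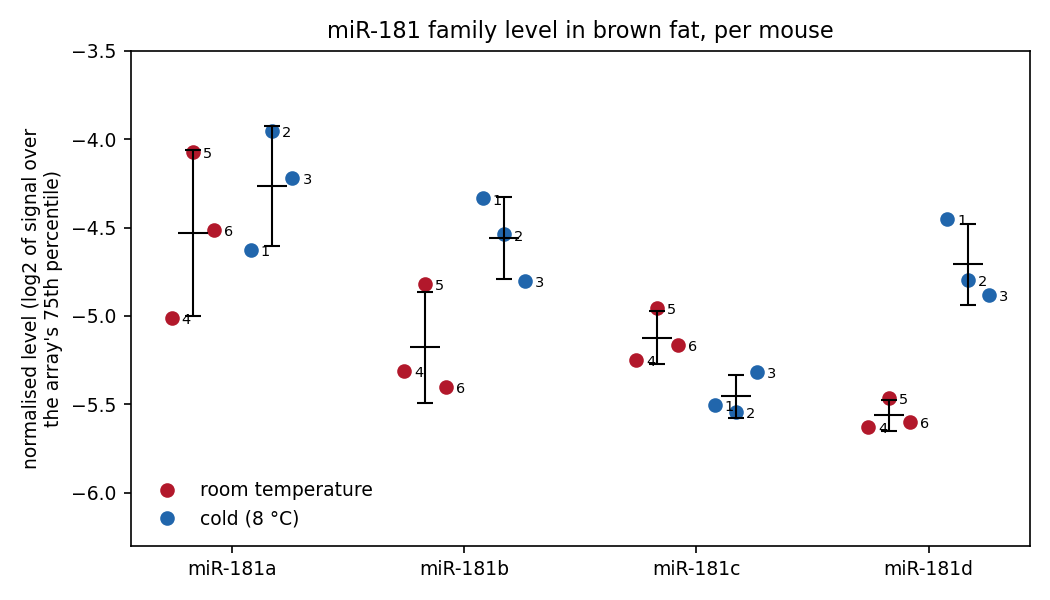
Normalised level (log2 of signal over the array's 75th percentile) of the 4 family members, with 1 point per mouse (numbered), the mean as a horizontal line and the SD as bars, for 3 room temperature and 3 cold mice. Cold points of mmu-miR-181d (-4.88 to -4.45) and mmu-miR-181b lie above the room temperature points, those of mmu-miR-181c lie below, and those of mmu-miR-181a overlap; the height of different miRNAs cannot be compared.

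mmu-miR-181b, cut from the chromosome 1 and chromosome 2 hairpins, had levels of -4.34, -4.54 and -4.80 in cold mice 1 to 3. At room temperature the levels were -5.31, -4.82 and -5.40 in mice 4 to 6. The groups were separated only by the small gap between mouse 3 and mouse 5. The change was 0.62 ± 0.20 (95% interval 0.16 to 1.08), a ratio of 1.54, and the limma adjusted p of 0.0719 missed the threshold.

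The 2 probes of mmu-miR-181b, both detected on all 8 arrays, differed in size of change. A_54_P2650 changed by 0.84 ± 0.20 (limma adjusted p = 0.0262) and A_54_P2651 by 0.40 ± 0.21 (adjusted p = 0.194). Before scaling, A_54_P2650 read 27.5, 32.9 and 29.7 units in cold mice 1 to 3 and 18.8, 23.9 and 26.8 units in mice 4 to 6, without overlap. A_54_P2651 read 34.9, 39.2 and 36.4 units in the cold and 33.4, 39.0 and 41.3 units at room temperature, with full overlap. Of the spots of A_54_P2650, 8 of 10 lay in the lower rows, against 5 of 10 for A_54_P2651. With the grid trend removed the change of mmu-miR-181b was 0.35 ± 0.18 (adjusted p = 0.248) and its groups overlapped. After scaling, the upper rows alone gave 1.19 (adjusted p = 0.00729) and the lower rows alone 0.08 (adjusted p = 0.81). Before scaling, the upper rows read 28.3 units in the cold against 27.8 for A_54_P2650 and 33.5 against 38.7 for A_54_P2651, so the value of 1.19 appeared only with the scaling of those rows.

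mmu-miR-181a, the member from the same hairpin pairs, had the widest spread within groups of the 4 (SD 0.34 in the cold and 0.47 at room temperature). Its levels were -4.63, -3.95 and -4.22 in cold mice 1 to 3 and -5.01, -4.07 and -4.51 in mice 4 to 6. The groups overlapped, and mice 1 and 4 were the lowest of their groups. The arrays of mouse 1 differed by 0.10 and those of mouse 4 by 0.07, so that the low values of these mice were repeated on their second arrays. The change was 0.27 ± 0.27 (95% interval -0.35 to 0.88, limma adjusted p = 0.514), an interval that still holds the size of change seen for mmu-miR-181b.

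Detection of mmu-miR-181a also rested on 1 probe and on where its spots lay. A_54_P1123 was well above background on all 8 arrays, in 28 of 39 cold spots and 37 of 40 room temperature spots, and A_54_P1122 on 0 arrays. In the upper rows A_54_P1123 read 6.17 ± 0.69 units in the cold mice and 55.4 ± 21.5 units at room temperature (SD, n = 3). In the lower rows it read 58.8 ± 21.8 and 44.6 ± 15.3 units. On each cold array the upper-row signal, 5.66 to 7.06 units, lay below that array's lowest detected probe (7.43 to 12.9 units), so it is a bound and no change is given for these rows. From the lower rows alone mmu-miR-181a changed by 0.12 (limma adjusted p = 0.705). No direction is given for this member.

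**Figure D3:**
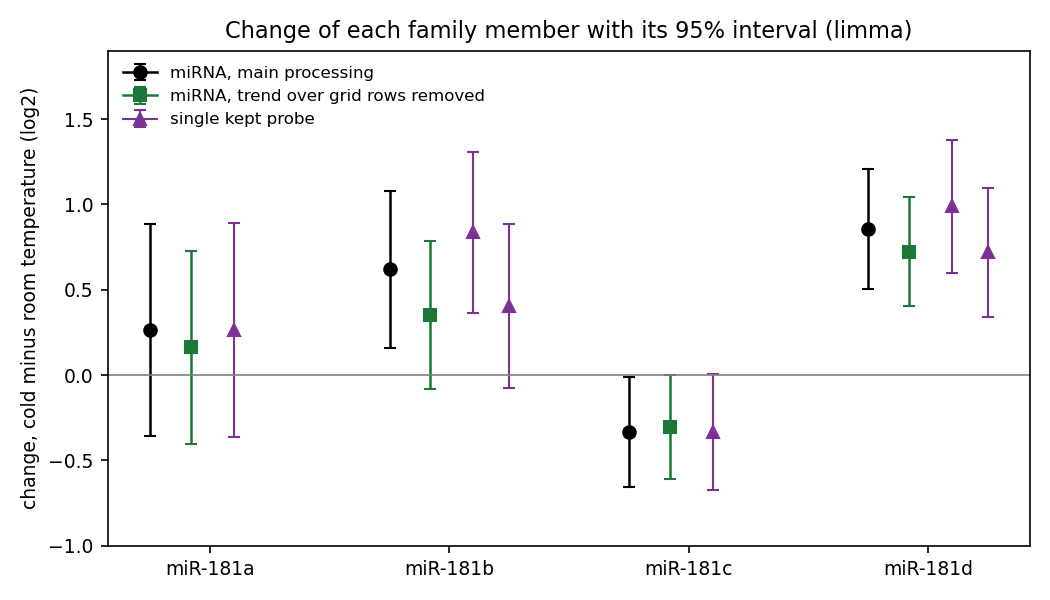
Change from room temperature to cold (log2) with its 95% interval from limma for each family member as processed here (circles), with each array's trend over grid rows removed (squares), and for each kept probe alone (triangles). Both probes and both versions of mmu-miR-181d lie above 0, whereas the interval of mmu-miR-181b reaches below 0 once the trend is removed and that of mmu-miR-181a spans 0 throughout.

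Set side by side, the 2 kinds of locus did not split the members by detection or by the sign of the measured change. Their levels, from different probes, were not compared. All 4 members were well above background on 8 of 8 arrays by at least 1 probe and also by the software's own call per miRNA. When every probe was required, mmu-miR-181b and mmu-miR-181d kept 8 arrays each, mmu-miR-181c kept 2 and mmu-miR-181a kept 0, so each kind of locus held 1 member seen by all its probes. All kept probes were dim, with mean signals of 18.5 to 47.9 units against a median of 70.2 to 105 units for detected probes.

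The difference in change between members of the 2 kinds of locus was tested for 4 pairs as the per-mouse difference of levels, with a 2-sided exact permutation test whose smallest possible p for 3 against 3 mice is 0.1. mmu-miR-181b minus mmu-miR-181c shifted by 0.95 between the groups (exact p = 0.1, 0.267 adjusted over the 4 pairs) and was the one pair without overlap. mmu-miR-181a minus mmu-miR-181c shifted by 0.60 (exact p = 0.2) and mmu-miR-181a minus mmu-miR-181d by -0.59 (exact p = 0.3). mmu-miR-181b minus mmu-miR-181d shifted by -0.24 (exact p = 0.2), the smallest of the 4. None could pass 0.05 in this design.

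How steady these differences were from mouse to mouse was read within each group. mmu-miR-181b minus mmu-miR-181d, which differ by C12U and in length, was 0.12, 0.26 and 0.08 in mice 1 to 3 and 0.32, 0.64 and 0.20 in mice 4 to 6, with SDs of 0.09 and 0.23. For mmu-miR-181a minus mmu-miR-181c, which differ by 1 missing base, the SDs were 0.37 in the cold and 0.33 at room temperature. For the members that share loci, they were 0.51 and 0.31 for mmu-miR-181a minus mmu-miR-181b, and 0.31 and 0.07 for mmu-miR-181d minus mmu-miR-181c. The order of these pairs differed between the groups, and neither a shared locus nor likeness in sequence went with the smallest spread in both. Whether a probe for one member also binds another was not tested.

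Groups of mice did not overlap for 3 of the 4 members, 2 with the cold mice above and 1 with them below, against 38.6% of all 189 miRNAs. With a count of 4 this share is a description.

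The miRNAs nearest to each member were found by the root mean square difference of levels over the 6 mice, after each miRNA's mean was taken off. For mmu-miR-181d they were mmu-miR-669n (0.12), mmu-miR-467e* (0.15) and mmu-miR-99b* (0.16), against a median of 0.49 over the other kept miRNAs, and mmu-miR-181b had rank 5. Of these, mmu-miR-669n changed by 0.78 (limma adjusted p = 0.0121). Its mean level at room temperature (-6.37) was near the floor (-6.64). The nearest miRNAs of every member were picked from the same mice, so a change like the member's follows from the choice. Such a change is not separate evidence. mmu-miR-99b* was at the floor in all 3 room temperature mice and mmu-miR-467e* in 2 of them, so their levels there are bounds and no change is given. For mmu-miR-181b they were mmu-let-7c (0.17), mmu-miR-705 (0.17) and mmu-miR-181d (0.19), with a median of 0.43.

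For mmu-miR-181c the nearest were mmu-miR-148b (0.09), mmu-miR-374 (0.09) and mmu-miR-324-5p (0.09), with a median of 0.28, and none of these was called. For mmu-miR-181a they were mmu-miR-379 (0.13), mmu-miR-136 (0.15) and mmu-miR-335-5p (0.16), with a median of 0.36, none called. The nearest family member ranked 107 for mmu-miR-181a and 143 for mmu-miR-181c of 188 other miRNAs.

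Other miRNAs tied to processes in which the family is known were taken as lists. Of 17 miRNAs known from adipose metabolism and inflammation, all were measured and none was called, with 13 negative and 4 positive changes, a range of -0.52 to 0.35 and a median of -0.24, against -0.02 over all miRNAs. The smallest p values belonged to mmu-miR-99a (-0.40, limma adjusted p = 0.0741), mmu-miR-29c (-0.34, 0.0957) and mmu-miR-27a (-0.46, 0.116). Of 13 miRNAs of lymphocyte development and signalling, 11 were measured and none was called, with 7 negative and 4 positive changes and a median of -0.08. An unadjusted p under 0.05 was reached by 62 of the 189 miRNAs, by 4 of the 17 adipose miRNAs and by 2 of the 11 lymphocyte miRNAs.

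**Figure D4:**
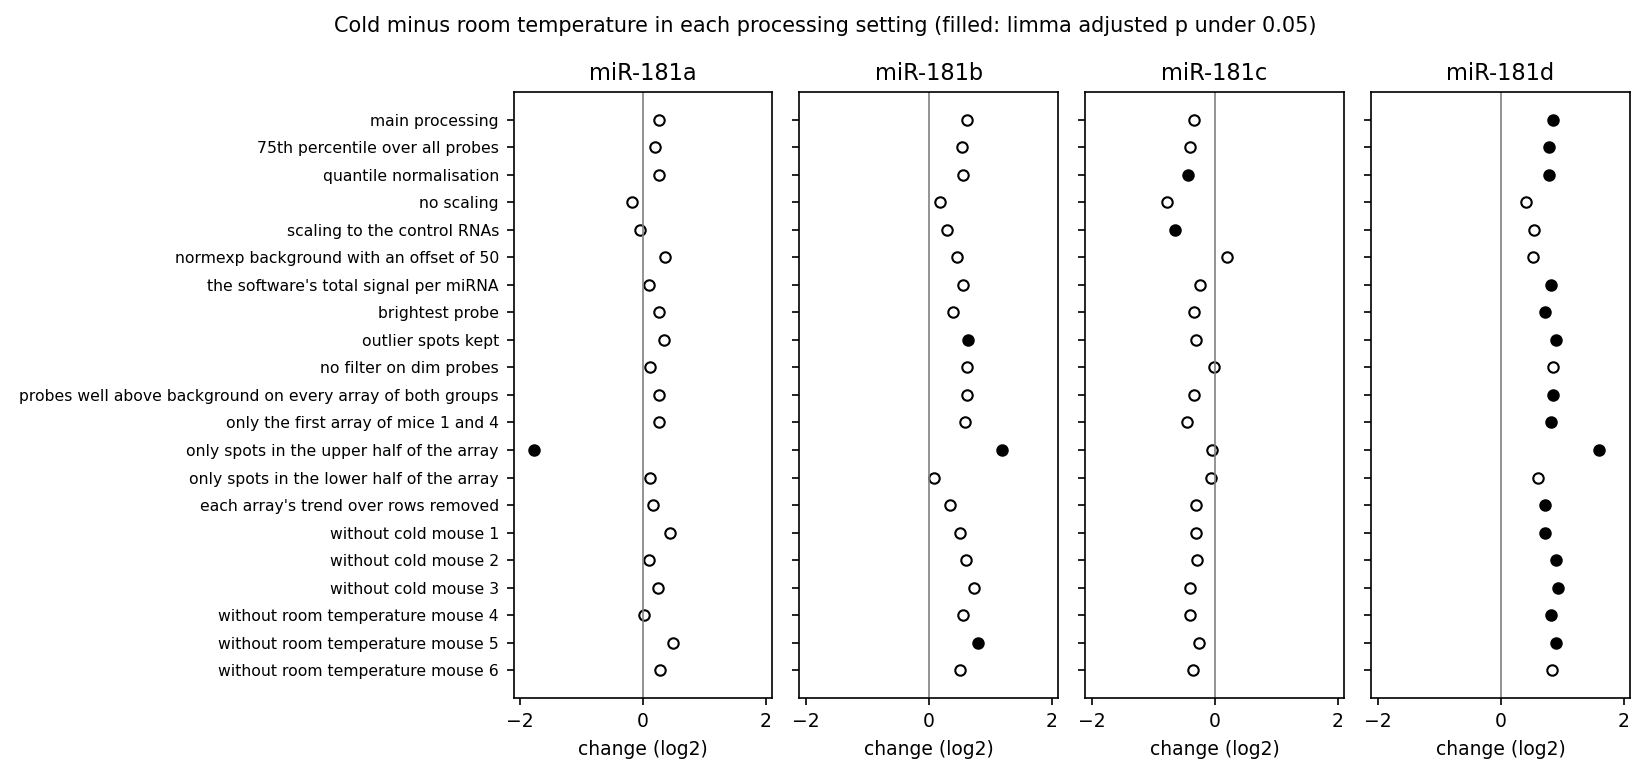
Change from room temperature to cold (log2, horizontal axis) of each family member in each processing setting (vertical), filled where limma's adjusted p was under 0.05. mmu-miR-181d is positive in every setting shown and called in 15 of 21, mmu-miR-181b is positive in every setting and called in 3, and mmu-miR-181a reaches -1.77 where only spots in the upper rows were used, a value against cold signals below the lowest detected probe.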

How the data were processed

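The authors deposited 1 scanner file per array. Per the file headers these hold spot intensity on a linear scale, background-subtracted by Agilent Feature Extraction 10.7.3.1 (9.5.3.1 per the submitters' processing notes), with deposited outlier and background flags per spot, coded 0 or 1. The authors' deposited value table held the same intensities, without scaling, centring or log (largest difference 0).

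Here control and outlier spots were dropped, spots of a probe averaged, arrays divided by the 75th percentile of 267 probes, and values floored at 0.01 before log2. Probes with over 0.5 of their spots well above background on each array of a group were retained (329 probes, 189 miRNAs). Kept probes, then arrays of one mouse, were averaged. limma 3.58.1 in R 4.3.3 compared the groups, tested on simulated data. Array trends were taken with loess over grid rows (span 0.3). Sequences came from RefSeq tables, since the arrays give none. The text names the members, their passenger strands, the 3 nearest miRNAs per member, and up to 3 list miRNAs by p. Normexp used the median in place of the mean spot signal. Members and lists were chosen with earlier results of these data known.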

Additional observations from a re-analysis of the deposited data

How the results depend on the processing

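Of the 20 alternatives run for each member, mmu-miR-181d and mmu-miR-181b were positive in all, mmu-miR-181a in 17, and mmu-miR-181c negative in 19. A floor of 0.1 gave no value for any member, since all lay below it, and 5 calls in all. Scaling shifted the median of all miRNAs to -0.46 with none and -0.34 with control RNAs, and normexp shifted it to 0.21. mmu-miR-181d was not called with no scaling (0.41, or 0.88 above that median), control RNAs (0.54, likewise 0.88 above it), normexp (0.53, or 0.32 above it), no filter on dim probes (0.85, adjusted p = 0.18 in limma) or only lower-row spots (0.61). mmu-miR-181a turned to -0.18 with no scaling and -0.052 with control RNAs (0.29 above the median in both), and to -1.77 from upper-row spots, whose cold signals lay below the lowest detected probe. Dividing each array by another factor shifts a member and the median alike. The equal distances from the median (0.88 and 0.29) were thus fixed in advance and do not test the scaling. mmu-miR-181c turned to 0.20 with normexp, and was called with quantile normalisation (-0.43) and control RNAs (-0.65). mmu-miR-181b was called with outlier spots kept (0.63) and from upper-row spots (1.19). The causes were not tested.

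The 29 calls over all miRNAs became 45 with quantile normalisation, 15 with no scaling, 6 with normexp, 5 with no filter, 16 with probes detected in both groups, and 64 from upper-row spots. Leaving out 1 mouse gave 8 (without mouse 6) to 33 calls, with 11, 14 and 13 without mice 2, 3 and 5. It gave 0.72 to 0.94 for mmu-miR-181d, lost without mouse 6, and 0.51 to 0.80 for mmu-miR-181b, called without mouse 5 (adjusted p = 0.0484 in limma). When all probes were needed, mmu-miR-181a was detected on 0 arrays and mmu-miR-181c on 2. No paired analysis was possible because the groups share no mouse number. Mean signals of kept family probes (18.5 to 47.9 units) lay below the median of detected probes (70.2 to 105 units).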

Other observations

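Cold mouse 1 and room temperature mouse 4, the lowest of their groups for mmu-miR-181a, also stood apart from the other mice on the second principal component of all 189 miRNAs, with scores of 3.11 and 3.48 against -3.13 to -0.66 in the other 4. They are the 2 mice that were hybridised to 2 arrays each, and they came from different groups.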
